A study of Ipomoea batatas with 9 samples.

Results

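Small heat shock proteins were examined in storage roots of sweetpotato (Ipomoea batatas cultivar Xushu 18), a tropical root crop whose roots suffer chilling injury in a cold store. Roots were not stored, stored at 14 °C, or stored at 4 °C, both stores with a relative humidity of 85%, and the study sought genes of the root that respond to low temperature. RNA was sequenced from 3 libraries per group, each a pool of 7 roots, so n = 3 for each mean, and errors without a name are SDs. The sources used here do not give the length of storage, so time and temperature in store cannot be told apart against roots that were not stored. Contigs here are the gene entries of the authors' table, each a single assembled transcript or a group of them. The members were the contigs with the gene symbol of a heat shock protein from HSP15.7 to HSP26.5. Contigs with the words heat shock in their description were to be left out. This gave 45 contigs of 110110, which carried 15 symbols, and 35 of the 45 held a single transcript.

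Small heat shock proteins are chaperones with a conserved alpha-crystallin domain that bind unfolding proteins and hold them until other chaperones, chiefly HSP70 and HSP100, refold them. Plants have many of them, in classes named after the cell compartment they work in: several cytosolic classes, and others in the endoplasmic reticulum, chloroplast, mitochondrion and peroxisome. They are known for their strong induction by heat through heat stress transcription factors, and some are also made in seeds, in storage organs and during chilling. The symbols come from soybean, Arabidopsis and other species, and were given to the contigs by the authors.

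The label was kept for 40 of the 45 contigs on the strength of their symbols, since their descriptions were empty. The other 5 carried the symbol HSP26-A and were described in the table as glutathione S-transferase, an enzyme that joins glutathione to toxic compounds; the soybean gene first named HSP26-A is itself a glutathione S-transferase. They were counted with the rest under the rule and are described apart. Of the 45 contigs, 40 were in the functional class that holds chaperones, 1 was in another class and 4, all HSP21.7, had none. By their gene ontology terms 31 belonged to the cytoplasm, 3 to the peroxisome, 2 each to the chloroplast, endoplasmic reticulum and mitochondrion, and the remaining 5 had glutathione transferase activity. A response to heat was a term of 10 contigs, a response to hydrogen peroxide of 9 and a response to high light of 8. The 40 small heat shock contigs were 208 to 1043 bases long with a median of 488.5, against a median of 474 over all contigs and 854 over contigs with a symbol. Sweetpotato is polyploid and several contigs share a symbol, so contigs of one symbol may be copies or fragments of one gene whose reads were split between them, and each symbol was therefore also tested as a sum.

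Library totals were 67643614 to 95421776 estimated counts, and 3 counts, the limit that a count of 0 allows, were 0.0318 to 0.0426 CPM (counts over scaled library size). Correlations of log2 CPM between libraries of one group were 0.979 to 0.992. Transcripts of sporamin and beta-amylase BMY1, the abundant proteins of the storage root, summed to 77900 to 119000 CPM over 26 contigs in roots not stored, 29730 to 38710 CPM at 14 °C and 30.3 to 260.1 CPM at 4 °C, where 5 of the 26 had no count and all 26 were called lower than in either other group. Those of light-harvesting proteins, which mark green tissue, summed to 547.3 to 800.1, 293.2 to 304.9 and 38.76 to 56.84 CPM over 45 contigs, with none at 0 in any group. Those of B-type cyclins, which mark dividing cells, summed to 138.4 to 156.7, 142.8 to 180.3 and 218.4 to 236.9 CPM over 13 contigs. Of the 13 cyclin contigs 2 were called higher and 1 lower at 4 °C against 14 °C. At 14 °C against roots not stored, 5 of the sporamin and BMY1 contigs were called higher and 2 lower, although their sum was lower. The sums of these markers moved with the groups, though those of cyclins overlapped between roots not stored and 14 °C. The part of these markers in the results below was not tested. In RNA of whole tissue, fewer cells of a type and less RNA per cell cannot be told apart.

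**Figure D1:**
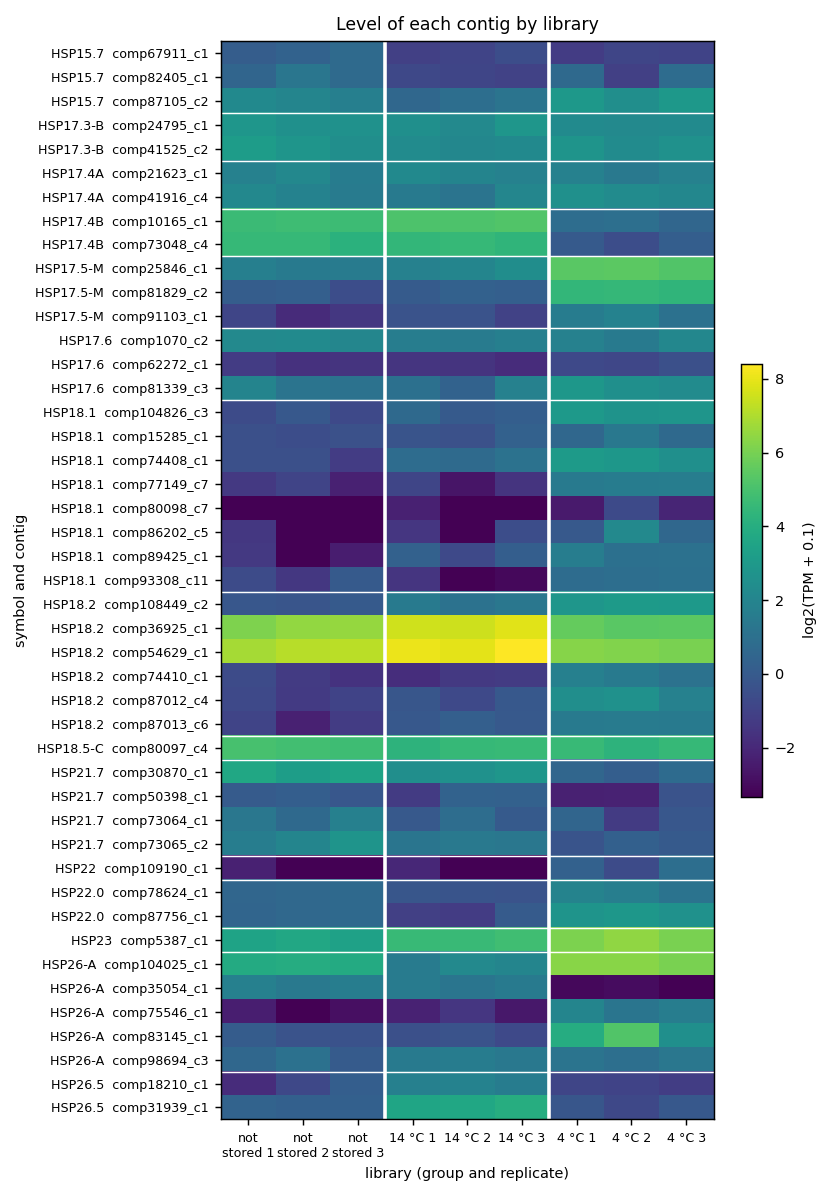
Level of each of the 45 contigs (rows, by symbol) in each of the 9 libraries (columns), as the authors' TPM on a log2 scale after adding 0.1. The pair of HSP18.2 contigs comp54629_c1 and comp36925_c1 is the brightest in roots not stored and at 14 °C, and the HSP17.4B rows darken at 4 °C while the HSP17.5-M, HSP18.1, HSP22.0 and HSP23 rows brighten.

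Small heat shock transcripts did not move as one group in the cold store: most contigs were called higher at 4 °C than at 14 °C, but the abundant HSP18.2 pair and both HSP17.4B contigs were lower. Counts were tested in edgeR's quasi-likelihood test over the whole table with a Benjamini-Hochberg false discovery rate of 0.05, and 44 of the 45 contigs passed its filter on low counts. At 4 °C against 14 °C, 25 contigs were higher, 9 were lower and 10 did not pass, with a median log2 fold change of 1.5 against -0.08 over all 94802 contigs tested. Of all contigs tested 47.8% were called in this comparison, 23.8% higher and 24% lower. Without HSP26-A the counts were 22 higher and 8 lower of 39 tested. At 4 °C against roots not stored, 20 contigs were higher, 14 lower and 10 did not pass (median 0.74 against -0.02), where 52.5% of all contigs were called, 26% higher and 26.6% lower. Without HSP26-A there were 17 higher and 13 lower. At 14 °C against roots not stored, 8 were higher, 13 lower and 23 did not pass (median -0.47 against 0.02), where 30.9% of all contigs were called, 15.1% higher and 15.7% lower. With library totals in place of TMM scaling, 21986 contigs of the whole table were called higher and 10372 lower in this last comparison, against 14335 and 14915 in the main fit, while the members then gave 8 higher and 12 lower. The comparisons share their libraries in pairs and are not independent of each other.

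**Figure D2:**
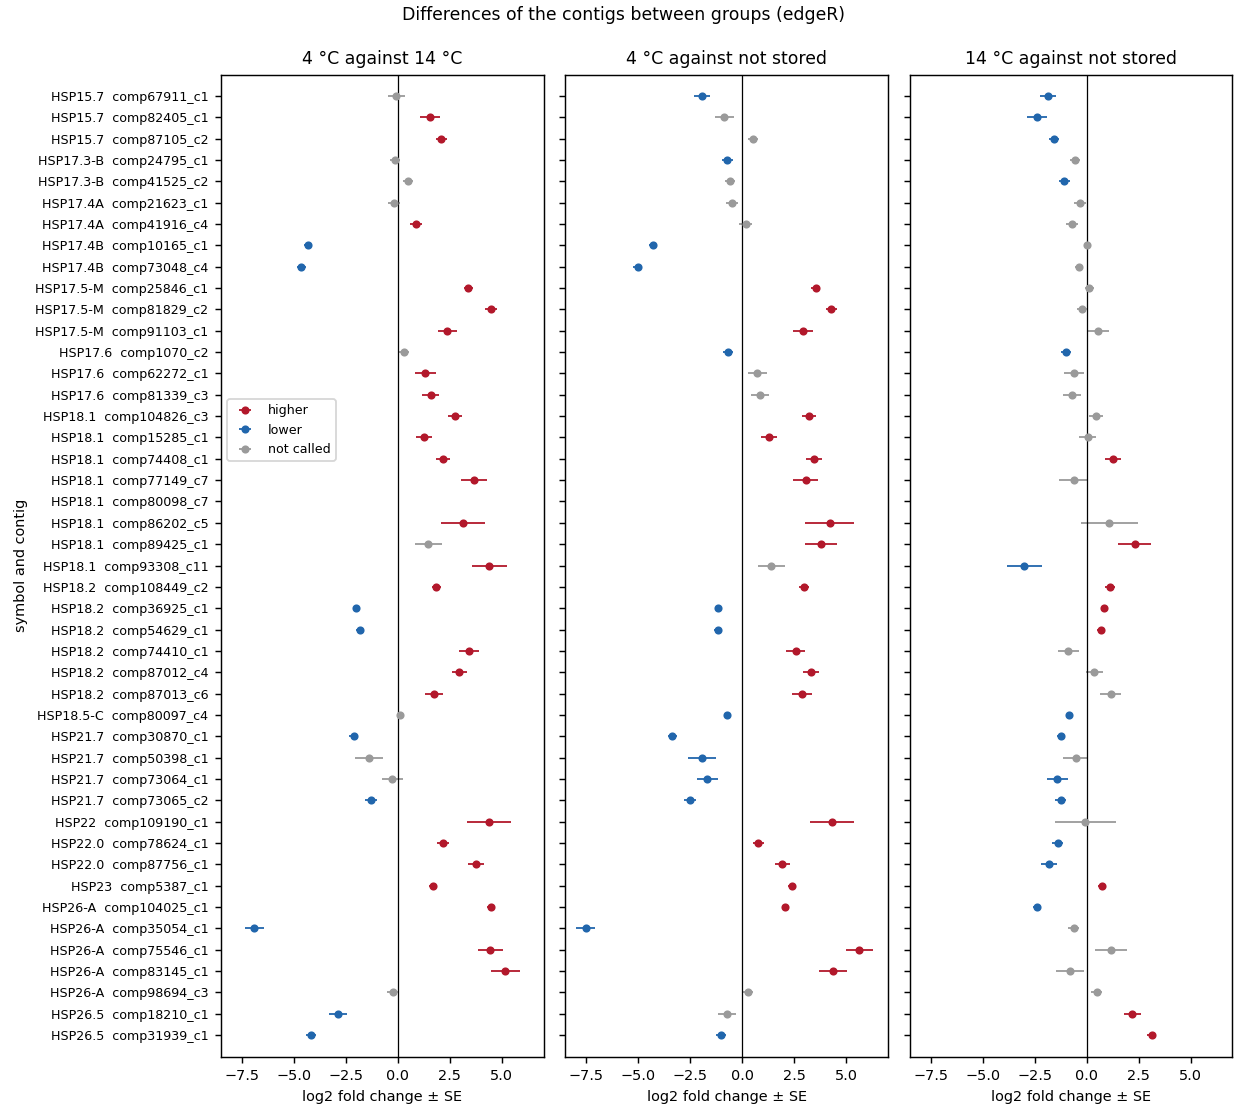
Log2 fold change with its standard error (horizontal bars) of each tested contig in the 3 comparisons, in edgeR; red marks contigs called higher, blue lower and grey those that did not pass. In the comparison of 4 °C with 14 °C the values ran from -6.91 to 5.16, and comp80098_c7 has no point because it was not tested.

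Levels between contigs are compared here in the authors' TPM, which is scaled by length. Of the 40 small heat shock contigs 7 had a mean of at least 10 TPM over the 3 groups, and of these 2 were higher, 4 lower and 1 not called at 4 °C against 14 °C. Of the 32 tested contigs below that level, 20 were higher, 4 were lower and 8 were not called. The 2 higher were HSP23 comp5387_c1 and HSP17.5-M comp25846_c1. The cut at 10 TPM was set after the values were seen and the difference between these sets was not tested, so the counts are a description. The mean also took in the groups compared, so a contig could pass through the group where it was high. In roots not stored, at 14 °C and at 4 °C, comp25846_c1 had 2.913, 4.223 and 40.84 TPM and HSP17.4B comp73048_c4 had 21.45, 21.98 and 0.8433 TPM. The directions in each set were thus partly set by the cut.

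The small heat shock contigs with the highest mean TPM over the groups were a pair with the symbol HSP18.2, a cytosolic class I protein in Arabidopsis. They made up 53.14% to 61.98% of the summed TPM of the 40 contigs in roots not stored. At 14 °C this share was 71.68% to 75.34%, and at 4 °C it was 29.62% to 32.61%. The first, comp54629_c1, had 109.7, 128.8 and 112.8 CPM in roots not stored, 167.9, 156.1 and 234.4 CPM at 14 °C, and 55.94, 54.8 and 44.72 CPM at 4 °C. Roots at 14 °C were highest and roots at 4 °C lowest, with no overlap between any groups. Its log2 fold change was -1.84 ± 0.16 (SE, adjusted p = 2.1e-06 in edgeR) at 4 °C against 14 °C, -1.18 ± 0.16 (adjusted p = 6.4e-05) against roots not stored, and 0.67 ± 0.16 (adjusted p = 0.0077) at 14 °C against roots not stored. The second, comp36925_c1, had 70.53, 83.85 and 75.03 CPM in roots not stored, 124.4, 120.4 and 169 CPM at 14 °C, and 37.31, 33.47 and 30.3 CPM at 4 °C. Its groups lay in the same order without overlap, with log2 fold changes of -2.03 ± 0.15 (adjusted p = 5e-07), -1.18 ± 0.15 (adjusted p = 3.2e-05) and 0.85 ± 0.15 (adjusted p = 0.0011). As lengths, the pair measured 788 and 813 bases.

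The 4 other HSP18.2 contigs, of 249 to 462 bases, went the other way. Their means were 0.06088 to 0.382 CPM in roots not stored, 0.08315 to 0.8323 CPM at 14 °C and 0.4571 to 3.008 CPM at 4 °C. All 4 were higher at 4 °C, with log2 fold changes of 1.73 to 3.44 against 14 °C and 2.56 to 3.32 against roots not stored. One of them, comp108449_c2, was also higher at 14 °C than in roots not stored (log2 fold change 1.12 ± 0.23, adjusted p = 0.0038 in edgeR). Summed over its 6 contigs, HSP18.2 followed the abundant pair and was lower at 4 °C than at 14 °C, by a log2 fold change of -1.83 ± 0.16 (adjusted p = 1.5e-06).

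HSP17.5-M, a class I protein of soybean, was the group of cytosolic contigs with the steepest rise at 4 °C. Contig comp25846_c1 had 2.388, 1.86 and 1.716 CPM in roots not stored, 1.718, 1.968 and 2.849 CPM at 14 °C, and 23.48, 25.65 and 19.4 CPM at 4 °C. Its libraries at 4 °C stood far above the rest, while the other two groups overlapped. The log2 fold change at 4 °C was 3.39 ± 0.22 (adjusted p = 1.5e-07) against 14 °C and 3.52 ± 0.22 (adjusted p = 9.6e-08) against roots not stored, a difference of 10.5-fold and 11.5-fold. Contig comp81829_c2 had 0.647, 0.6482 and 0.3097 CPM in roots not stored, 0.4031, 0.4808 and 0.5092 CPM at 14 °C, and 10.48, 11.42 and 9.188 CPM at 4 °C. It too was apart at 4 °C alone, and was 22.3-fold higher there than at 14 °C (log2 fold change 4.48 ± 0.27, adjusted p = 8.9e-08) and 19.2-fold higher than in roots not stored (4.27 ± 0.27, adjusted p = 9.6e-08). The third HSP17.5-M contig, comp91103_c1, was higher by 2.38 ± 0.47 (adjusted p = 0.0012) and 2.93 ± 0.49 (adjusted p = 0.00032), and none of the 3 passed the test at 14 °C against roots not stored.

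HSP18.1, another cytosolic class I name, was spread over 8 short contigs of 208 to 459 bases that stayed at or below 1.917 CPM in each library. Summed, they had 1.071, 0.9242 and 0.7356 CPM in roots not stored, 1.283, 0.8163 and 1.418 CPM at 14 °C, and 6.147, 6.873 and 4.962 CPM at 4 °C. The sum was apart at 4 °C and overlapped between the other two groups, with log2 fold changes of 2.36 ± 0.25 (adjusted p = 9.6e-06) against 14 °C and 2.72 ± 0.26 (adjusted p = 2.8e-06) against roots not stored. Of the 7 tested contigs 6 were higher in each of these comparisons, although the calls of comp15285_c1 and comp86202_c5 were lost in both without 4 °C replicate 2 (adjusted p of 0.1 and 0.19 against 14 °C, 0.096 and 0.068 against roots not stored). Those against 14 °C were also lost without 14 °C replicate 1 (0.069 and 0.091) or 2 (0.075 and 0.085). The largest fitted rise was that of comp93308_c11, with 0.1765, 0.08402 and 0.2323 CPM in roots not stored, 0.05304, 0 and 0 CPM at 14 °C, and 0.4117, 0.4607 and 0.4315 CPM at 4 °C. These were 40, 5 and 100 counts per group, and the ratio of 4 °C to 14 °C was 22.3 with a 95% counting interval of 9.26 to 70.3. Its log2 fold change was 4.4 ± 0.82 (adjusted p = 0.00082) at 4 °C against 14 °C and -3 ± 0.85 (adjusted p = 0.019) at 14 °C against roots not stored. Without 14 °C replicate 1, the one with counts, these became 8.12 and -6.72, and without 14 °C replicate 2 the second call was lost (-2.44, adjusted p = 0.065). At 14 °C against roots not stored, 2 contigs were called higher in edgeR. These were comp74408_c1 (1.27 ± 0.38, adjusted p = 0.024) and comp89425_c1 (2.3 ± 0.8, adjusted p = 0.046). Both calls were lost without 14 °C replicate 1 (0.051 and 0.13) or 3 (0.07 and 0.099). They were also lost without replicate 3 of the roots not stored (0.076 and 0.11). The untested contig, comp80098_c7, had 0, 1 and 8 counts per group.

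**Figure D3:**
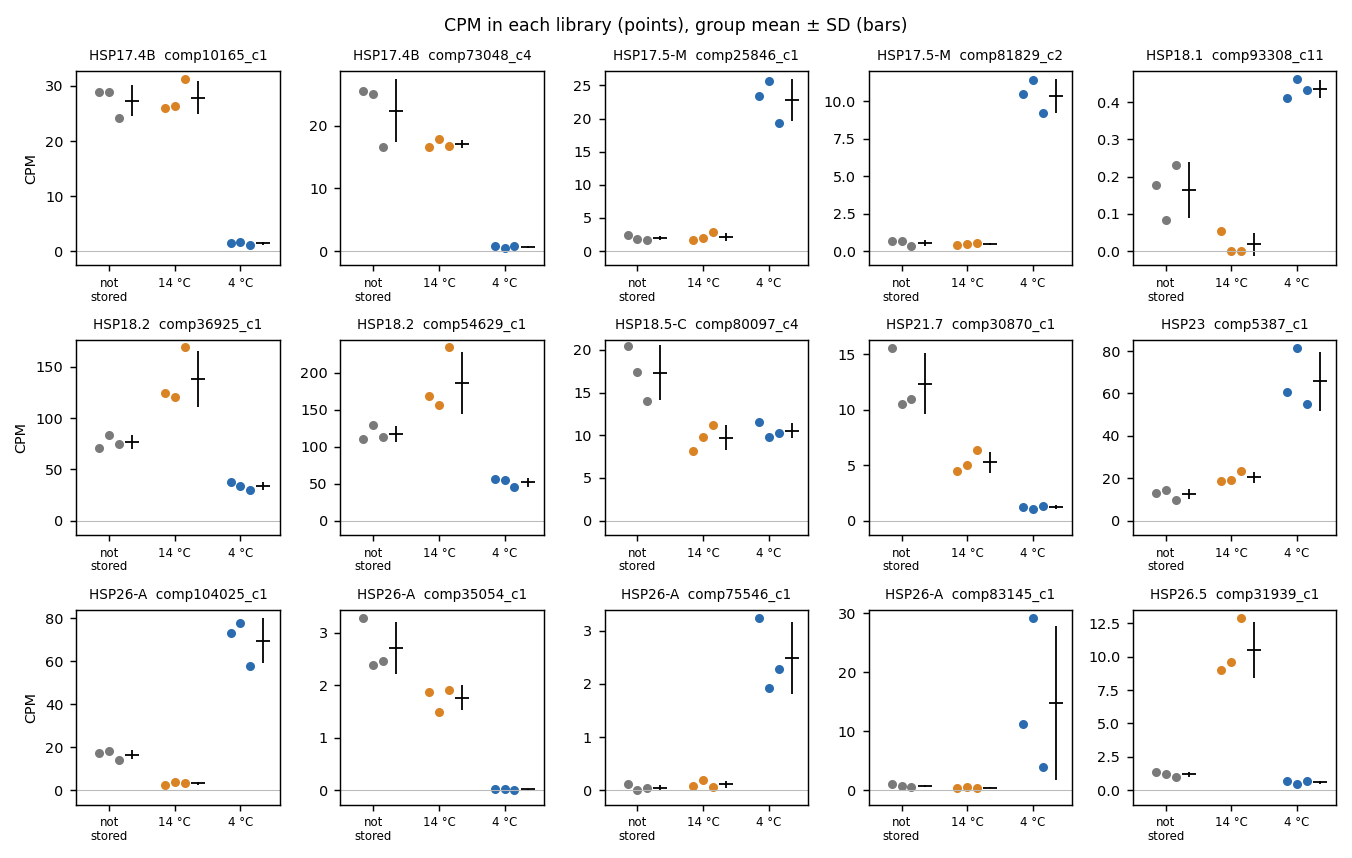
CPM of the 15 contigs that had a mean of at least 5 CPM in a group or the largest called change in a comparison; each point is a library, the bars beside them give the group mean ± SD, and each panel has its own linear axis. The 4 °C libraries of HSP17.5-M and HSP23 lie above all others, those of HSP17.4B and HSP21.7 below, and HSP26.5 is high at 14 °C.

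HSP17.4B, a class III protein of Arabidopsis that is found in both cytosol and nucleus, had the deepest falls at 4 °C among the 40 small heat shock contigs. Contig comp10165_c1 had 28.99, 28.87 and 24.13 CPM in roots not stored, 26, 26.28 and 31.28 CPM at 14 °C, and 1.448, 1.631 and 1.053 CPM at 4 °C. Only its 4 °C libraries stood apart, 20.2-fold below 14 °C (log2 fold change -4.34 ± 0.18, adjusted p = 6.1e-09 in edgeR) and 19.8-fold below roots not stored (-4.31 ± 0.18, adjusted p = 4.9e-09). Contig comp73048_c4 had 25.61, 25.03 and 16.57 CPM in roots not stored, 16.65, 17.87 and 16.76 CPM at 14 °C, and 0.7525, 0.523 and 0.7868 CPM at 4 °C. It was likewise apart at 4 °C, by -4.64 ± 0.22 (adjusted p = 1.4e-08) and -5.03 ± 0.22 (adjusted p = 6.4e-09). Neither passed the test at 14 °C against roots not stored (adjusted p of 0.92 and 0.12), though comp73048_c4 did without replicate 3 of the roots not stored (log2 fold change -0.63, adjusted p = 0.0074).

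HSP21.7, named after a further cytosolic protein of Arabidopsis, was lower in both stores. Contig comp30870_c1 had 15.53, 10.54 and 10.96 CPM in roots not stored, 4.476, 4.965 and 6.317 CPM at 14 °C, and 1.235, 1.009 and 1.358 CPM at 4 °C. The groups lay in this order without overlap. Its log2 fold change was -2.13 ± 0.21 (adjusted p = 6.2e-06) at 4 °C against 14 °C, -3.36 ± 0.22 (adjusted p = 1.4e-07) at 4 °C against roots not stored and -1.23 ± 0.2 (adjusted p = 0.00075) at 14 °C against roots not stored. All 4 HSP21.7 contigs were lower at 4 °C than in roots not stored, but comp50398_c1 lost this call without replicate 1 or 2 of either group (adjusted p of 0.061 to 0.11). HSP18.5-C, a class I protein of soybean, was lower in both stores by similar amounts. Its contig comp80097_c4 had 20.48, 17.42 and 14.04 CPM in roots not stored, 8.189, 9.784 and 11.16 CPM at 14 °C, and 11.5, 9.824 and 10.28 CPM at 4 °C. Both stores lay below the roots not stored and overlapped each other, with log2 fold changes of -0.83 ± 0.17 (adjusted p = 0.0028) at 14 °C and -0.72 ± 0.17 (adjusted p = 0.0032) at 4 °C, and 0.12 ± 0.17 (adjusted p = 0.59) between them.

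The remaining cytosolic names were HSP17.3-B, HSP17.6 and HSP17.4A. The sum of HSP17.3-B, class I in soybean, had means of 5.961 ± 1.738 CPM in roots not stored, 3.235 ± 0.5132 at 14 °C and 3.864 ± 0.3675 at 4 °C. It was lower in both stores than in roots not stored, by -0.88 ± 0.22 (adjusted p = 0.01) at 14 °C and -0.63 ± 0.22 (adjusted p = 0.03) at 4 °C, but the first call was lost without 14 °C replicate 2 (adjusted p = 0.053) and the second without 4 °C replicate 2 or 3 or without replicate 1 or 2 of the roots not stored (adjusted p of 0.053 to 0.14). The sum of HSP17.6 was 1.806 ± 0.5911 CPM at 14 °C and 3.84 ± 0.5574 CPM at 4 °C (log2 fold change 1.09 ± 0.27, adjusted p = 0.0051), and 2 of its 3 contigs were called higher there. Of these comp62272_c1 (adjusted p = 0.043) lost its call when any 1 library of either group was left out (adjusted p of 0.08 to 0.11). Against 3.22 ± 0.8801 CPM in roots not stored, HSP17.6 was called lower at 14 °C (-0.84 ± 0.27, adjusted p = 0.033), a call lost without replicate 1 or 2 of either group (adjusted p of 0.06 to 0.13). The sum of HSP17.4A, class I in Arabidopsis, had 3.355 ± 0.9278, 2.218 ± 0.6007 and 3.456 ± 0.5776 CPM and passed in no comparison with all libraries in edgeR (adjusted p = 0.06 at 4 °C against 14 °C). It was called higher at 4 °C than at 14 °C in limma-voom (adjusted p = 0.049) and without replicate 3 of any one group (adjusted p of 0.025 to 0.049), and lower at 14 °C than in roots not stored without replicate 3 of either group (0.046 and 0.017). Its contig comp41916_c4 was called higher at 4 °C than at 14 °C (0.86 ± 0.3, adjusted p = 0.035), a call lost without replicate 1 or 2 of either group (adjusted p of 0.085 to 0.14).

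Members with organelle terms were few, with 2 or 3 contigs per compartment, and no difference between compartments was tested. HSP23, which its gene ontology term places in the chloroplast stroma, had the highest mean TPM of the 40 contigs at 4 °C. This was 74.23 ± 11.39 TPM, beside 72.31 ± 5.226 TPM for HSP18.2 comp54629_c1. The ranges of these contigs overlapped, and HSP23 was the higher only in 4 °C replicate 2 (87.35 against 72.22 TPM). In counts, HSP23 contig comp5387_c1 had 13.01, 14.6 and 9.911 CPM in roots not stored, 18.7, 19.03 and 23.58 CPM at 14 °C, and 60.69, 81.58 and 54.9 CPM at 4 °C. The groups rose in this order without overlap, by 0.71 ± 0.18 (adjusted p = 0.012) from roots not stored to 14 °C, 1.69 ± 0.18 (adjusted p = 1.2e-05) from 14 °C to 4 °C, and 2.39 ± 0.19 (adjusted p = 6.3e-07) from roots not stored to 4 °C. HSP22, the other chloroplast name, was nearly absent outside the cold store. Its contig comp109190_c1, of 319 bases, had 3 counts in roots not stored and 3 at 14 °C, all in replicate 1 of each group, against 61 at 4 °C (0.2698, 0.137 and 0.3934 CPM). The ratio of 4 °C to 14 °C was 22.7 with a counting interval of 7.41 to 113, and that to roots not stored was 21.8 with an interval of 7.11 to 108 (adjusted p of 0.0047 and 0.0046 in edgeR). The plastid contigs were higher while light-harvesting transcripts were lower in the same libraries, as given above.

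HSP26.5, a mitochondrial protein in Arabidopsis, was highest at 14 °C. The sum of HSP18.2 was too, with mean CPM of 194.3, 325.3 and 91.49 in roots not stored, at 14 °C and at 4 °C. HSP26.5 contig comp31939_c1 had 1.388, 1.2 and 1.02 CPM in roots not stored, 8.984, 9.605 and 12.91 CPM at 14 °C, and 0.6673, 0.4358 and 0.6599 CPM at 4 °C. No groups overlapped, and it was 8.71-fold higher at 14 °C than in roots not stored (log2 fold change 3.12 ± 0.23, adjusted p = 3.1e-06) and 17.9-fold lower at 4 °C than at 14 °C (-4.16 ± 0.24, adjusted p = 6.8e-08). It was also lower at 4 °C than in roots not stored (-1.04 ± 0.24, adjusted p = 0.0028). The second HSP26.5 contig, comp18210_c1, had the same length of 914 bases and means of 0.557 ± 0.3744, 2.519 ± 0.1677 and 0.3364 ± 0.06057 CPM. It was higher at 14 °C than in roots not stored (2.18 ± 0.41, adjusted p = 0.002) and lower at 4 °C than at 14 °C (-2.9 ± 0.43, adjusted p = 0.00015).

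The sums of HSP22.0 and HSP15.7 showed the opposite order, lowest at 14 °C. HSP22.0, a soybean protein of the endoplasmic reticulum, had 2 contigs whose sum was 2.494, 2.569 and 2.271 CPM in roots not stored, 0.7001, 0.6374 and 1.101 CPM at 14 °C, and 7.226, 7.782 and 5.355 CPM at 4 °C. The groups did not overlap, and the sum was higher at 4 °C than at 14 °C by 3.07 ± 0.25 (adjusted p = 8.7e-07) and than in roots not stored by 1.47 ± 0.23 (adjusted p = 0.00017), and lower at 14 °C than in roots not stored by -1.6 ± 0.24 (adjusted p = 0.00043). HSP15.7, which works in peroxisomes of Arabidopsis, summed over 3 contigs to 5.2, 4.993 and 3.704 CPM in roots not stored, 1.124, 1.353 and 1.693 CPM at 14 °C, and 5.963, 4.059 and 5.355 CPM at 4 °C. Its 14 °C libraries lay below the rest, at -1.74 ± 0.23 (adjusted p = 0.00016) against roots not stored, and 4 °C was above 14 °C by 1.89 ± 0.23 (adjusted p = 2.8e-05). Roots at 4 °C and roots not stored overlapped (0.15 ± 0.22, adjusted p = 0.6). Of its 3 contigs only comp67911_c1 was called at 4 °C against roots not stored, as lower (-1.92 ± 0.38, adjusted p = 0.0011). Between the stores comp67911_c1 was not called (-0.07 ± 0.4, adjusted p = 0.9 in edgeR). Contig comp82405_c1 was called higher at 4 °C than at 14 °C (1.53 ± 0.49, adjusted p = 0.022 in edgeR). This call was lost in limma-voom (0.1) and without any one library of these groups but 4 °C replicate 2 (adjusted p of 0.053 to 0.084).

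The 5 HSP26-A contigs, described as glutathione S-transferase, held both the largest rise and the deepest fall of the 45 at 4 °C, against either other group. Contig comp104025_c1 had 17.39, 17.96 and 14.17 CPM in roots not stored, 2.355, 3.634 and 3.482 CPM at 14 °C, and 73.2, 77.62 and 57.56 CPM at 4 °C. Each group was apart from the others, with 14 °C lowest. It was 22-fold higher at 4 °C than at 14 °C (log2 fold change 4.46 ± 0.2, adjusted p = 9.7e-09), 4.21-fold higher than in roots not stored (2.07 ± 0.18, adjusted p = 1.5e-06), and 5.23-fold lower at 14 °C than in roots not stored (-2.39 ± 0.19, adjusted p = 4.9e-06). Contig comp83145_c1 had 0.9529, 0.6602 and 0.5291 CPM in roots not stored, 0.4031, 0.4696 and 0.3578 CPM at 14 °C, and 11.24, 29.15 and 3.896 CPM at 4 °C. The 4 °C libraries were all above the others but differed widely among themselves. The log2 fold change was 5.16 ± 0.7 (adjusted p = 0.00025) against 14 °C and 4.36 ± 0.67 (adjusted p = 0.00045) against roots not stored, and fell to 4.22 and 3.37 without 4 °C replicate 2.

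Contig comp75546_c1 had 0.1059, 0 and 0.03872 CPM in roots not stored, 0.08486, 0.1901 and 0.05505 CPM at 14 °C, and 3.237, 1.93 and 2.284 CPM at 4 °C. Only the 4 °C libraries stood out, by 4.45 ± 0.59 (adjusted p = 7.3e-05) against 14 °C, which became 5.09 without 14 °C replicate 2, and by 5.63 ± 0.66 (adjusted p = 2.2e-05) against roots not stored, which became 6.92 and 5.02 without replicates 1 and 2 of that group. In contrast comp35054_c1 had 3.271, 2.389 and 2.452 CPM in roots not stored, 1.877, 1.487 and 1.913 CPM at 14 °C, and 0.0142, 0.0249 and 0 CPM at 4 °C. The 4 °C libraries held only 3 counts in all, under the limit that 3 counts per library set, against 449 at 14 °C and 667 in roots not stored. The ratio of 14 °C to 4 °C was 134 with a 95% counting interval of 45.6 to 652, and that of roots not stored to 4 °C was 208 with an interval of 70.7 to 1010 (adjusted p of 1.9e-07 and 7e-08 in edgeR). The fifth, comp98694_c3, passed in no comparison, with 1.554 ± 0.6394, 2.162 ± 0.06735 and 1.846 ± 0.1219 CPM.

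**Figure D4:**
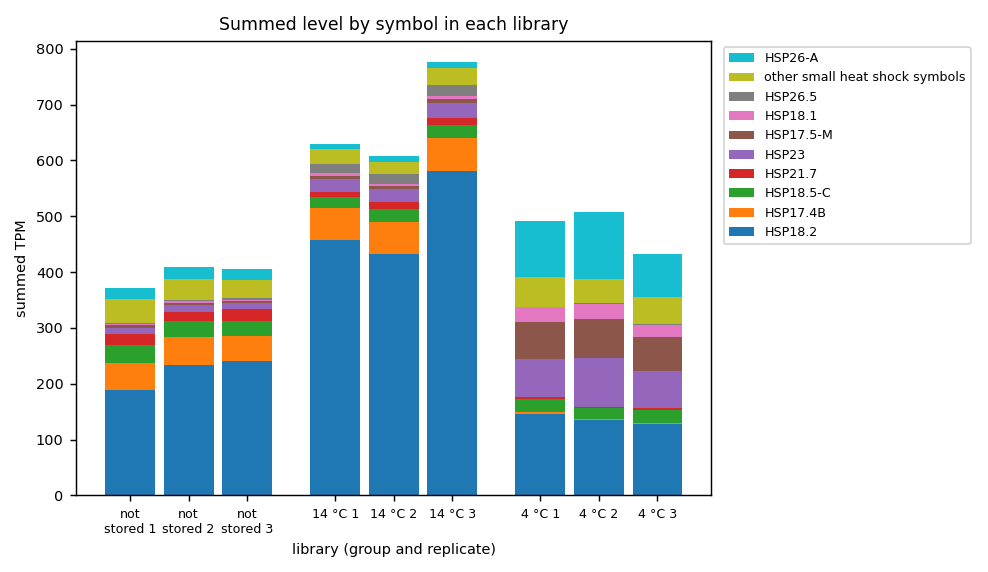
Summed TPM of the 45 contigs in each library, stacked by symbol, with the contigs of HSP26-A on top and 6 further symbols drawn together as other small heat shock symbols. HSP18.2 fills most of each bar at 14 °C, and HSP23, HSP17.5-M, HSP18.1 and HSP26-A take larger parts at 4 °C.

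The summed level was highest at 14 °C. Summed TPM of the 40 small heat shock contigs was 351.6, 387.8 and 386.1 in roots not stored, 619.9, 597.7 and 765.8 at 14 °C, and 391.1, 387.6 and 354.9 at 4 °C. Roots at 14 °C stood above both other groups, which overlapped. In CPM the same sum was 318.9, 339.1 and 290.3 in roots not stored, 393.1, 381.6 and 528 at 14 °C, and 244.4, 259 and 205.4 at 4 °C, so that 4 °C lay lowest and no groups overlapped. Without the abundant HSP18.2 pair the order in TPM changed: 164.8, 155.5 and 146.8 TPM in roots not stored, 166.3, 169.3 and 188.8 TPM at 14 °C, and 263.6, 272.8 and 243.8 TPM at 4 °C. The 4 °C libraries were then highest, and no groups overlapped in TPM. In CPM these sums were 138.7, 126.5 and 102.5, then 100.8, 105.1 and 124.6, then 151.2, 170.7 and 130.4. On that scale 4 °C lay above 14 °C but overlapped roots not stored, and the mean at 14 °C was below that of roots not stored. The sum of all 45 contigs in CPM was 337.6 ± 27.23 in roots not stored, 441.8 ± 81.63 at 14 °C and 324.8 ± 49.79 at 4 °C. The ratio of 4 °C to roots not stored was 0.9621 in CPM and 1.209 in TPM, so its direction depended on the scale. It also depended on 4 °C replicate 3: the log2 ratio in CPM was -0.06 with it and 0.06 without it. Tested as sums, 8 of the 15 symbols were higher, 4 lower and 3 not called at 4 °C against 14 °C. At 4 °C against roots not stored these were 6, 6 and 3, and at 14 °C against roots not stored 3, 7 and 5. In the same order, 47.8%, 52.5% and 30.9% of all single contigs tested were called. A sum can hold more counts than a single contig.

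The chaperones that small heat shock proteins work with, and the factors that switch on their genes, were counted from lists of symbols and descriptions. Their counts stand beside the shares of all tested contigs, which were 23.8% higher and 24% lower at 4 °C against 14 °C, 26% and 26.6% at 4 °C against roots not stored, and 15.1% and 15.7% at 14 °C against roots not stored. From each list the contig with the highest mean CPM over all libraries, which is not scaled by length, is named. HSP70 proteins, which refold the clients of small heat shock proteins with ATP, had 43 of 75 tested contigs higher and 10 lower at 4 °C against 14 °C (median log2 fold change 0.92), and 40 higher and 9 lower against roots not stored (0.49). At 14 °C against roots not stored 16 were higher and 17 lower (-0.25), and without replicate 1 or 2 of the 14 °C roots 11 or 9 were lower. The contig MED37C comp11354_c5 went against the count and had 769.5, 876.8 and 1039 CPM in roots not stored, 1595, 1403 and 1625 CPM at 14 °C, and 970.8, 956.8 and 973.5 CPM at 4 °C. Roots at 14 °C were apart from both overlapping other groups, and 4 °C was lower than 14 °C by -0.67 ± 0.12 (adjusted p = 0.00076). HSP90 proteins, which fold receptors and kinases, had 21 of 35 higher and 2 lower at 4 °C against 14 °C (0.51), 22 and 3 against roots not stored (1.03), and 10 and 3 at 14 °C (0.35). Among them HSC80 comp37928_c9 had 496.6 ± 52.09, 395.4 ± 31.88 and 423.9 ± 43.86 CPM and passed in no comparison of the main fit. At 14 °C against roots not stored its log2 fold change was -0.33 ± 0.12 (adjusted p = 0.061 in edgeR). It was called lower there with the stricter filter (0.042), the DESeq2 Wald test (0.047) and limma-voom (0.028). Without replicate 3 of the roots not stored it was called lower at 14 °C (0.0075) and at 4 °C (0.018) than in that group.

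**Figure D5:**
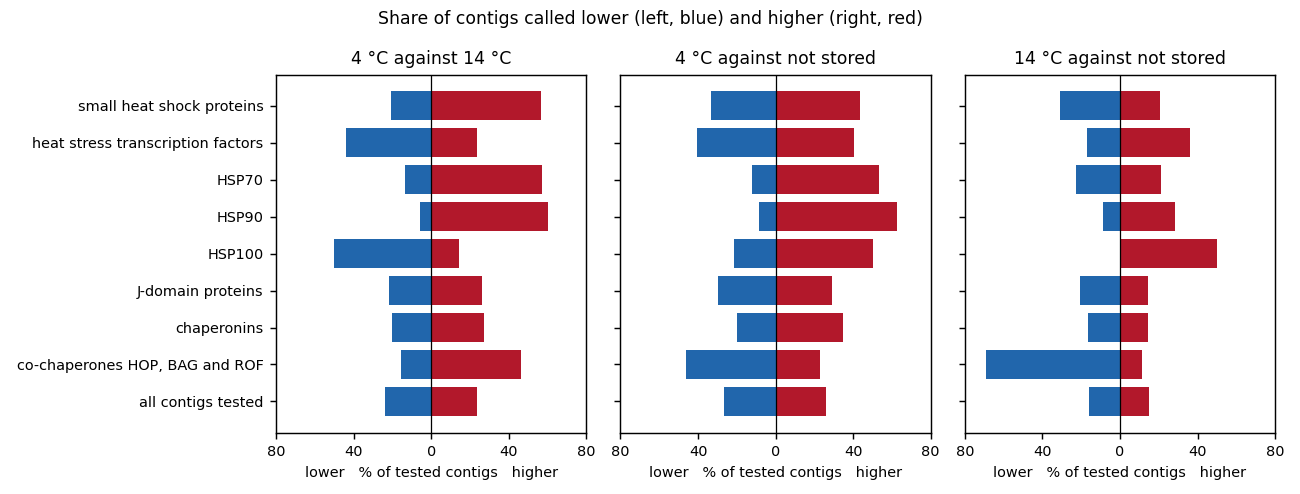
Share of tested contigs called higher (right, red) and lower (left, blue) in each comparison for the 40 small heat shock contigs, 7 lists of other chaperones and heat stress factors, and all contigs tested. At 4 °C against 14 °C the HSP70 and HSP90 bars reach to the right, and those of HSP100 and the heat stress transcription factors to the left.

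HSP100 proteins, which pull apart aggregates held by small heat shock proteins, were placed differently: 2 of 14 were higher and 7 lower at 4 °C against 14 °C (-0.61), 7 were higher and 3 lower at 4 °C against roots not stored (0.24), and 7 were higher and 7 did not pass at 14 °C against roots not stored (0.75). The contig clpE comp63349_c3 was described as a ClpB subunit, but its gene ontology terms included DNA binding, nuclease activity and nucleotide-excision repair. It had 123.3 ± 13.46, 178.5 ± 22.41 and 139.7 ± 10.53 CPM and was higher at 14 °C than in roots not stored (0.53 ± 0.13, adjusted p = 0.0084). Its difference between 4 °C and 14 °C was -0.35 ± 0.13 (adjusted p = 0.039), a call lost without replicate 1 or 2 of the 14 °C roots or any one of the 4 °C replicates (adjusted p of 0.066 to 0.15). One of the 2 higher HSP100 contigs was lost without replicate 2 or 3 at 14 °C or replicate 1 or 3 at 4 °C. Heat stress transcription factors had 15 of 64 higher and 28 lower at 4 °C against 14 °C (-0.32), 26 and 26 against roots not stored (0.2), and 23 and 11 at 14 °C (0.38). The contig HSF24 comp7269_c1, named after a class B factor of tomato, had 124.3 ± 15.15, 133.6 ± 15.82 and 189.5 ± 20.37 CPM and was higher at 4 °C than at 14 °C (0.5 ± 0.13, adjusted p = 0.0084) and than in roots not stored (0.61 ± 0.13, adjusted p = 0.0024). The 3 contigs of HSFA2, a factor that sustains the heat response in Arabidopsis, were named after their values were seen. Their means were 12.55 to 35.88 CPM in roots not stored, 10.39 to 39.32 CPM at 14 °C and 2.587 to 10.08 CPM at 4 °C, and all 3 were lower at 4 °C, by -1.83 to -2.01 against 14 °C. Other factors of the list differed, and these too were named after their values were seen. HSFB3 comp90262_c6 was higher at 4 °C than at 14 °C by 3.3 (adjusted p = 1.2e-08 in edgeR). Contigs of HSF30 ran from -3.49 (comp39667_c5) to 1.48 (comp16237_c2) at 4 °C against roots not stored.

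J-domain proteins, the partners that bring clients to HSP70, had 50 of 189 higher and 41 lower at 4 °C against 14 °C (median 0), 55 and 56 against roots not stored (-0.02), and 27 and 39 at 14 °C (-0.08). As shares those against roots not stored were 29.1% and 29.6% at 4 °C and 14.3% and 20.6% at 14 °C, and in the 3 comparisons the shares lay near those of all contigs. Their contig DNAJ1 comp32166_c1 fell in both stores. It had 1467, 1416 and 1077 CPM in roots not stored, 666.1, 660.1 and 861 CPM at 14 °C, and 356.9, 303.2 and 327.3 CPM at 4 °C. No groups overlapped, and 4 °C was lower than 14 °C by -1.15 ± 0.15 (adjusted p = 5.3e-05). Chaperonins, barrel-shaped folding machines, had 15 of 55 higher and 11 lower (-0.02), 19 and 11 (0.33), and 8 and 9 (0.11) in the same order of comparisons. As shares these were 27.3% and 20%, 34.5% and 20%, and 14.5% and 16.4%, of which the first and last pairs were near those of all contigs. These counts depended on single libraries: the 11 lower became 7 without 4 °C replicate 2, and the 19 higher became 10 without it and 12 without replicate 1 or 3 of the roots not stored. At 14 °C against roots not stored the 8 higher became 3 or 4 without 14 °C replicate 1 or 3 or any one of the roots not stored, and the 9 lower became 5 without 14 °C replicate 2 and 14 without replicate 3 of the roots not stored. The contig comp54330_c7, described as chaperonin GroEL, had 296.7 ± 34.96, 281.8 ± 37.94 and 107.8 ± 6.909 CPM and was lower at 4 °C than at 14 °C by -1.39 ± 0.13 (adjusted p = 3.8e-06). Co-chaperones of the HOP, BAG and ROF families had 12 of 26 higher and 4 lower (0.46), 6 and 12 (-0.12), and 3 and 18 (-0.81). Their contig FKBP62 comp92093_c1 was higher at 14 °C than in roots not stored (0.34 ± 0.11, adjusted p = 0.029), a call lost without any one library of those groups but 14 °C replicate 2, and without 4 °C replicate 2 (adjusted p of 0.062 to 0.13). A list for other proteins with an alpha-crystallin domain matched 0 contigs.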

How the data were processed

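Root RNA of 9 libraries in 3 groups was analysed from one deposited table. Per the file headers the table holds estimated counts, TPM and RPKM of each contig, all made by the authors; the RPKM were not used. Tools named in the submitters' processing notes, without their roles, are cutadapt 1.9, HISAT2 2.0.4, StringTie 1.3.4d, DESeq2 and edgeR. The assembler, the counter, the genome build and the strand are not given in the sources used here. Overlapping antisense transcripts and near-identical copies cannot be told apart. The extraction protocol in the labels speaks of retina, which does not match the root of the other labels. Symbols, descriptions and gene ontology terms are the authors'.

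Expected counts (18.7% to 22.6% whole per library, to within 1e-08) were rounded and tested in edgeR 4.0.16 (R 4.3.3): filterByExpr, which left 94802 contigs, TMM scaling and robust quasi-likelihood fits over all 9 libraries, with Benjamini-Hochberg adjustment over all tested contigs. CPM are counts over the TMM-scaled library size. Symbols were tested in the same way after their contigs were summed. The spread behind each p-value is that between pools of roots. Intervals (exact binomial, on counts summed over the libraries of a group) and limits cover counting error only. They leave out the spread between pools of roots, and the reads carry no molecular barcodes.

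Libraries of one group differed by more than sampling noise (chi-square per degree of freedom at least 12.01). Values per library are given for the 15 contigs whose mean reached 5 CPM in a group or that had the largest called rise or fall in a comparison, and for sums of symbols chosen after their values were seen; the other 30 contigs are given by counts and ranges, with single values where they show how contigs of one symbol differ. Other chaperones are named as the contig of each list with the highest mean CPM. Some further heat stress factors were named after their values were seen. Members and lists were chosen with earlier results of these data known. Alternatives were DESeq2 1.42.0 size factors, library totals, no filter or a stricter one (1 CPM in 3 libraries), the replicate number as a block, the DESeq2 Wald test, limma-voom (limma 3.58.1), only the 2 groups compared, a 2-fold threshold, and each library left out. The script was tested on simulated data. Figures used Python 3.11.15 and matplotlib 3.10.9. No sequences are printed, since the files used here hold none.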

Additional observations from a re-analysis of the deposited data

How the results depend on the processing

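The counts of contigs called stayed within 1.5 times of the main counts of 34, 34 and 21 (4 °C against 14 °C, 4 °C against roots not stored, 14 °C against roots not stored) under each alternative run, but some counts of contigs called higher did not. The stricter filter, which tests fewer contigs, left 15 of 25 higher at 4 °C against 14 °C and 12 of 20 against roots not stored, and a 2-fold threshold left 5 of 8 higher at 14 °C against roots not stored. With each library left out in turn the contigs called numbered 29 to 35, 28 to 35 and 18 to 21 in the order above, those higher 20 to 26, 17 to 21 and 6 to 8, those lower 9 to 10, 11 to 15 and 12 to 15, and the symbols called 12 to 13, 11 to 12 and 8 to 12. Replicate numbers did not pair the libraries (correlations of deviations from the group means of -0.431 to 0.258 over 9 pairs), and with the replicate block 31, 32 and 20 contigs were called. Of 89 calls of single contigs 15 were lost, by their adjusted p, under at least 1 alternative that tested the contig again, and 0 reversed. Calls of contigs that the stricter filter left untested, and calls under 2-fold, are not among these 15. The stricter filter kept 24, 25 and 17 calls in the order above, and the 2-fold threshold kept 33, 30 and 16. Of 34 calls of symbols 3 were lost, those of HSP17.6 at 14 °C and HSP17.3-B in both stores against roots not stored. The summed level in CPM, which has no test, changed direction with the contigs and the scale chosen. Its log2 ratio at 4 °C against 14 °C was -0.44, and became 0.09 without the most abundant contig, -0.88 without HSP26-A and 0.45 without HSP26-A and the abundant HSP18.2 pair. At 4 °C against roots not stored it was -0.06, and became 0.04 with library totals, 0.27 in TPM, 0.31 without the most abundant contig, -0.42 without HSP26-A and 0.3 without HSP26-A and the pair. Leaving out each library gave -0.16 to 0.06 there, -0.55 to -0.28 at 4 °C against 14 °C and 0.23 to 0.47 at 14 °C against roots not stored. The last ratio was 0.39, and became 0.76 in TPM and -0.15 without HSP26-A and the pair. The alternatives that leave out HSP26-A, and the leaving out of libraries for symbols, were chosen after seeing the data. Library totals in place of TMM moved the median log2 fold change of all contigs from -0.075, -0.018 and 0.024 to -0.225, 0.078 and 0.271. At 14 °C against roots not stored they moved counts of other chaperones by over 1.5 times, to 9 HSP70 contigs lower, 49 J-domain contigs higher and 23 lower, 19 chaperonins higher and 5 lower, and 5 co-chaperones higher. The stricter filter left 7 heat stress factors lower there, and the DESeq2 Wald test called 26 HSP70 contigs lower. With only the groups compared in the fit, 11 chaperonins were higher at 4 °C against roots not stored, and library totals, the stricter filter and the replicate block each left 1 HSP100 contig higher at 4 °C against 14 °C. What caused these changes was not tested beyond the smaller number of contigs or libraries. At this depth contigs with few counts, such as those of HSP18.1 and HSP22, have wide intervals.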
